A study of Mus musculus and Homo sapiens with 83 samples.

Results

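Mammalian cells import, store and export iron through a small set of proteins. The 7 mouse genes described here encode the exporter (Slc40a1), the uptake proteins (Tfrc and Slc11a2), the ferritin chains that store iron (Fth1 and Ftl1) and the RNA-binding proteins that set how much of the others is made (Aco1 and Ireb2). They were listed by symbol and chosen by values already known from these same cells, their levels per cell and summed by day, and were matched to the Ensembl identifiers of the count files with the version ignored. All 7 were found, of 55401 mouse gene identifiers. Because the genes were chosen with their values in view, the levels by day are given as a description, and differences between days were not tested.

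The study measured DNA methylation, chromatin accessibility and RNA in the same single cells. Each cell was opened in a hypotonic buffer, its cytoplasm was moved across a chip away from the nucleus, and the RNA was made into libraries by a protocol based on Smart-seq2, which primes on the poly(A) tail. The cells were mouse embryonic stem cells (mESCs) of the E14 line, from strain 129/Ola. At day 0 there were 6 cells, grown on mouse embryonic fibroblast (MEF) feeders in medium with leukaemia inhibitory factor (LIF), which keeps mESCs undifferentiated. The cells of day 3 (7 cells), day 6 (6 cells) and day 9 (5 cells) had been replated on gelatin without feeders or LIF, and had differentiated in no set direction. All days share 1 cell line, and the labels name no separate cultures, so each day counted as 1 sample and no p-value was computed. Each library held 1 cell, so that no cell barcodes were shared.

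Iron levels are regulated largely after transcription. Iron regulatory proteins bind hairpins called iron-responsive elements in mRNAs when the cell is short of iron. Bound at the start of ferritin or ferroportin mRNA they block translation, and bound at the end of transferrin receptor mRNA they protect it from decay. Counts of mRNA, as given here, do not measure the proteins.

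Gene-assigned reads per library ran between 3913595 and 16367029 (median 8761882). A single gene, CT010467.1, took between 12.96% and 75.16% of them, and mitochondrially encoded genes took between 1.995% and 24.21%, with the 4 highest day 0 values among the top 5. Levels are given as counts per 1000000 gene-assigned reads (CPM), per cell or for the summed cells of a day. Intervals are exact Poisson 95% intervals and, as the reads carry no molecular identifiers, cover counting error only. Of the 12 pluripotency markers, 11 had at least 1 CPM on every day. The exception was Sox2, which had 0 reads in all 24 cells and lies wholly inside its overlapping transcript Sox2ot. Pou5f1, which encodes the pluripotency factor OCT4, stood at 136.6, 572.3, 576.3 and 271.5 CPM at days 0, 3, 6 and 9. Dppa5a, another pluripotency marker, stood at 10409.0, 7955.5, 7906.7 and 5999.5 CPM on the same days.

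The promoter windows of the ferritin genes and of the transferrin receptor gene are shown because the ferritin pair varied together from cell to cell, as described further on, while Tfrc went with Fth1 at r = 0.23 and with Ftl1 at r = 0.03 (Pearson's r of log2(CPM + 1) over 24 cells). Each window runs from 250 bases before the annotated start to 50 bases after it, as RefSeq gives it on build GRCm38.p6. The Fth1 window is chr19:9982396-9982695 on the plus strand, the Ftl1 window is chr7:45459837-45460136 on the minus strand, and the Tfrc window is chr16:32608646-32608945 on the plus strand. Capitals mark every match, on either strand, to CCAAT (the box that NF-Y binds; ATTGG on the other strand), TATAA (the TATA box; TTATA on the other strand) and ACGTG (the core of a hypoxia response element; CACGT on the other strand).
Fth1: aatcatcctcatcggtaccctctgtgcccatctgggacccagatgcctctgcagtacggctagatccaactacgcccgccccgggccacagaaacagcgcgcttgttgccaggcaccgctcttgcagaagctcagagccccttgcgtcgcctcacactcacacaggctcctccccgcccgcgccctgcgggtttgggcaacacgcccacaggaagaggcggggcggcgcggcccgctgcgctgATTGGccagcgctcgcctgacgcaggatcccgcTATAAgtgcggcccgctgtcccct
Ftl1: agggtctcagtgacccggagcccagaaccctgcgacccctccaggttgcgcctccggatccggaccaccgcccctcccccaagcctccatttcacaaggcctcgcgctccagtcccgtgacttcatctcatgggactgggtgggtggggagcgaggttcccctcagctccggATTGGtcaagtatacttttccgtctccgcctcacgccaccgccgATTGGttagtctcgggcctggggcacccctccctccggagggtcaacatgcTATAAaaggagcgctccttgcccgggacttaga
Tfrc: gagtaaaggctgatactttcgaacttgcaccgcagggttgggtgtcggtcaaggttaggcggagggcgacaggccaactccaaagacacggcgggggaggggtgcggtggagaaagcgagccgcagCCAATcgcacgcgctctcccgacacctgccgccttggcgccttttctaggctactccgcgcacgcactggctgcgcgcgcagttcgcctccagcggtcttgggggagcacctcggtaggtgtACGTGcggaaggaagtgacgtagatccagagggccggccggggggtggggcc
Both ferritin windows shown held CCAAT and TATAA, and no capitals of different motifs touch. Counting the annotated start as 1 and the base before it as -1, the CCAAT match of Fth1 began at -7, and those of Ftl1 began at -78 and -34. TATAA began at 27 in Fth1 and at 18 in Ftl1, after the annotated start in both, and is called a TATA box by its letters only. The Tfrc window held CCAAT at -124 and ACGTG at -2. Of 32851 RefSeq mouse windows of the same length, 37.4% held CCAAT, 24.9% held TATAA and 19.6% held ACGTG. Fth1 and Tfrc each have another annotated window, which is not shown. That of Fth1 held TATAA and no CCAAT. That of Tfrc held TATAA and the same ACGTG letters, and no CCAAT. What the ferritin windows share, and share with Tfrc, thus depends on the window taken. The Aco1 and Ireb2 windows held none of these letters. TGACNNNGC, the core of the antioxidant response element, was in 12.4% of all windows and in none of the windows of these 5 genes. A match is a run of letters and was not tested as a binding site. Its part in how the genes varied from cell to cell was not tested either.

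Of the 7 genes, Slc40a1 differed most between day 9 and day 0. It encodes ferroportin, the only known iron exporter of mammalian cells (ENSMUSG00000025993.10, chr1:45908070-45926532, build GRCm38.p6). The 4 day 0 reads came from cell 5 (3 reads) and cell 6 (1 read). At day 3 there were 59 reads from 2 of 7 cells, and at day 6 there were 54 reads from 2 of 6 cells. At day 9 all 5 cells had reads, 3701 in total. The exporter mRNA was thus near the limit of detection in most cells up to day 6: a cell with 0 reads allows up to 3 reads, which is between 0.183 and 0.517 CPM in the libraries of days 0, 3 and 6.

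The 5 day 9 cells had 0.256, 36.2, 305.8, 53.5 and 14.0 Slc40a1 CPM in order of cell number, against 0, 0, 0, 0, 0.483 and 0.114 CPM in the 6 day 0 cells. Cells 2, 3, 4 and 5 of day 9 were above every day 0 cell, and day 9 cell 1 lay within the day 0 range. The highest cells of the other days were day 3 cell 5 with 5.54 CPM and day 6 cell 6 with 4.34 CPM, both below 4 of the 5 day 9 cells. Summed by day, Slc40a1 stood at 0.0879 CPM (0.0239 to 0.225) at day 0, 0.984 CPM (0.749 to 1.27) at day 3, 0.791 CPM (0.594 to 1.03) at day 6 and 101.4 CPM (98.2 to 104.7) at day 9. The day 9 value rested mostly on cell 3, which held 79.8% of the reads, and it was 27.9 CPM without that cell.

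**Figure D1:**
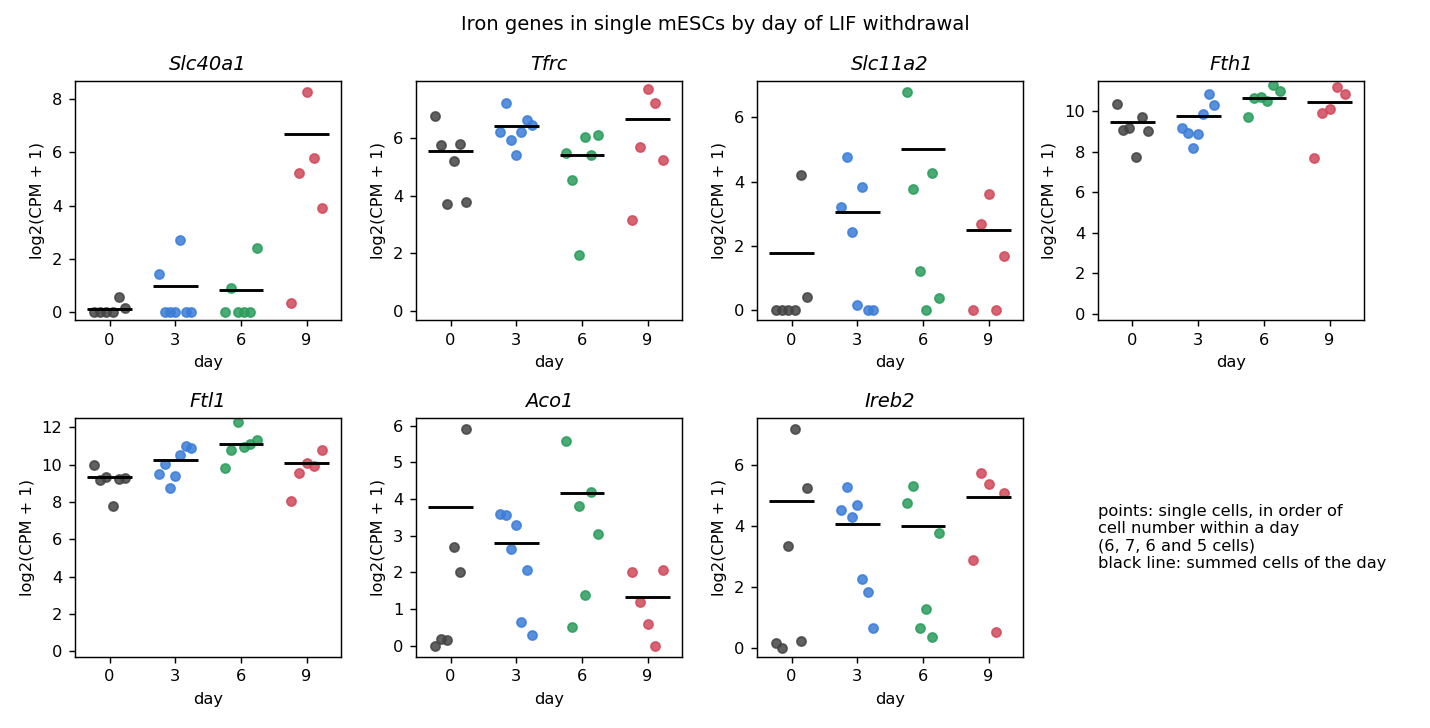
Level of the 7 iron genes in each of 24 mESCs, as log2(CPM + 1), by day of culture without LIF (6, 7, 6 and 5 cells at days 0, 3, 6 and 9). Each point is 1 cell and each black line is the level of the summed cells of that day. Slc40a1 is at or near 0 in most cells up to day 6 and high in 4 of 5 day 9 cells, while the ferritin genes have reads in every cell.

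Each later day was set against day 0 by the log2 ratio of CPM + 1, less the median of all genes measured, which is called the relative log2 ratio. A gene counted as measured when the days compared held 20 or more of its reads, from 2 or more libraries. The median gene itself was at 0.09, 0.49 and 0.71 on the log2 scale at days 3, 6 and 9. All 3 comparisons share the same 6 day 0 cells. For Slc40a1 the relative log2 ratio was 0.77 at day 3 (1.01 without day 3 cell 6) and 0.23 at day 6, and it was 5.85 at day 9. The plain ratio of CPM at day 9 over day 0 was 1154 (450.3 to 4237.6, counting error only, since day 0 had 4 reads). Leaving out any 1 cell gave relative log2 ratios from 4.06, without day 9 cell 3, to 6.19, without day 9 cell 5. Over 13 other settings of scaling, pseudocount and filter it ran from 3.28 to 7.99.

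At least 2-fold higher than day 0 were 1 of the 7 genes at day 3 (Slc11a2), 2 at day 6 (Slc11a2 and Ftl1) and 1 at day 9 (Slc40a1). Among all genes measured, 20.7%, 25.4% and 25.2% were at least 2-fold higher at days 3, 6 and 9. At least 2-fold lower were 1 gene at day 3 (Aco1), 1 at day 6 (Ireb2) and 1 at day 9 (Aco1). Among all genes measured, 23.5%, 23.1% and 23.8% were at least 2-fold lower at days 3, 6 and 9. With CT010467.1 in the totals, in no comparison did all later cells lie above, or all below, all day 0 cells for any of the 7 genes. Among all genes measured, the later cells were all above in 1.8%, 1.26% and 2.11% at days 3, 6 and 9, and all below in 0.413%, 0.192% and 0.193%. With CT010467.1 out of the totals, the lowest Ftl1 cells of day 3 (1735.3 CPM) and day 6 (1702.6 CPM) lay above the highest day 0 cell (1689.9 CPM). The lowest day 9 cell for Slc40a1, with 1 read (0.9495 CPM), then also lay above the highest of day 0 (0.8675 CPM). Shares of all genes were not computed on those totals. As the genes were listed with these contrasts known, nothing is read from the counts. The median relative log2 ratio of the 7 genes was 0.76, 0.23 and 0.06 at days 3, 6 and 9.

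**Figure D2:**
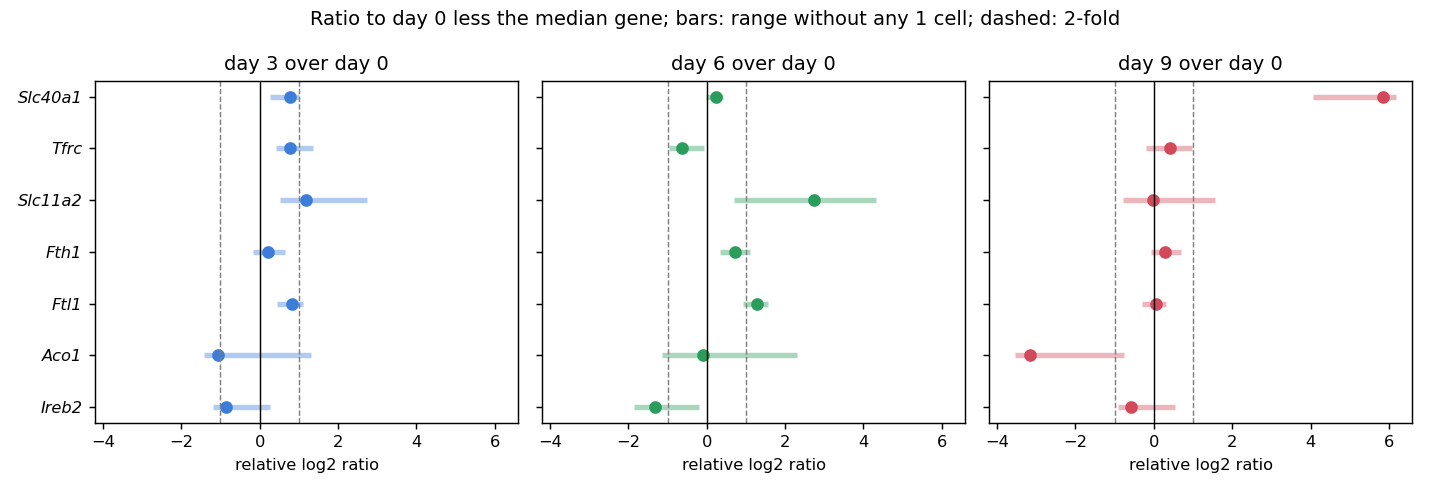
Relative log2 ratio of each iron gene at day 3, day 6 and day 9 over day 0 (points), with the range obtained when any 1 cell of either day is left out (bars). Dashed lines mark 2-fold. The day 9 ratio of Slc40a1 stays between 4.06 and 6.19, while the bars of Aco1 and Slc11a2 cross a dashed line in every panel.

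Markers of visceral endoderm and trophoblast also stood higher at day 9 than at day 0. In the mouse embryo ferroportin is found in the extraembryonic visceral endoderm and placenta, which pass iron to the embryo. All 16 visceral endoderm markers had at least 1 CPM at day 9, against 5 of 16 at day 0. Their summed level in the 5 day 9 cells was 53.2, 367.9, 314.6, 1477.8 and 215.9 CPM in order of cell number, against 0.397 to 107.0 CPM in day 0 cells (median 15.6). Day 9 cell 1 was the lowest for these markers and for Slc40a1, whereas cell 4 was the highest for the markers and cell 3 for Slc40a1. The markers with the highest CPM were Ttr, which encodes the thyroid hormone carrier transthyretin, at 124.9 CPM at day 9 against 0.0439 CPM at day 0, and Lrp2, which encodes the endocytic receptor megalin, at 96.3 CPM at day 9 against 8.22 CPM at day 0.

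Trophoblast markers also stood higher at day 9, with 8 of 14 at or above 1 CPM, against 3 of 14 at day 0. The summed level in the 5 day 9 cells was 84.1, 198.8, 212.5, 100.6 and 282.3 CPM in order of cell number, against 0 to 94.1 CPM in day 0 cells. Cell 5, the highest for these markers, had 14.0 Slc40a1 CPM, whereas cell 4, with 53.5 Slc40a1 CPM, was near cell 1. Tpbpa and Synb were at 0 at day 9. Macrophages and red cell precursors, which also carry ferroportin, were looked for in the same cells. Of 12 macrophage markers, Lyz2, C1qa, C1qb, C1qc, Ptprc and Tyrobp were at 0 at day 9, where 2 had at least 1 CPM. The summed macrophage level in day 9 cells was 10.5, 5.64, 74.8, 3.09 and 3.32 CPM in order of cell number, against 0 to 237.4 CPM in day 0 cells, and cell 3, the highest of the day 9 cells, was also the highest for Slc40a1. Hba-a1, Hba-a2, Hbb-bt, Hbb-bs, Hbb-bh1 and Hbb-y, of 13 erythroid markers, were at 0 at day 9. The summed level of the 13 markers in day 9 cells was 1.53, 1.55, 18.9, 0 and 1.22 CPM, again highest in cell 3, against 0 to 5.80 CPM in day 0 cells. The part of visceral endoderm, trophoblast, macrophage or erythroid cells in the Slc40a1 level was not tested.

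Tfrc encodes transferrin receptor 1, which takes up transferrin-bound iron (ENSMUSG00000022797.16, chr16:32608896-32632794). It had reads in all 24 cells. The day 0 cells ran from 12.0 to 105.2 CPM (median 44.1). Day 3 cells ran from 41.3 to 144.9 CPM (median 72.4), and 1 of 7 was above every day 0 cell. Day 6 cells ran from 2.81 to 67.3 CPM (median 41.9), and 1 of 6 was below every day 0 cell. The 5 day 9 cells had 7.92, 50.2, 202.1, 144.2 and 36.5 CPM. Cells 3 and 4 of day 9 were above every day 0 cell and cell 1 was below every one. This spread to both sides held with CT010467.1 in the totals, of which it took 73.09% in cell 1. With CT010467.1 out of the totals, cells 1 and 4 (29.4 and 165.7 CPM) lay within the day 0 range of 21.0 to 176.4 CPM. Cell 3 stayed above that range, at 245.1 CPM.

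Summed by day, Tfrc stood at 45.5 CPM (43.5 to 47.5) at day 0, 83.2 CPM (80.9 to 85.6) at day 3, 40.8 CPM (39.3 to 42.3) at day 6 and 99.9 CPM (96.7 to 103.2) at day 9. The relative log2 ratios of Tfrc were 0.76, -0.64 and 0.41 at days 3, 6 and 9. None of these reached 2-fold, although without day 0 cell 1 the day 3 ratio did, at 1.36. Day 9 cell 3, the cell with the most Slc40a1, also held 53.5% of the day 9 Tfrc reads. Without it the day 9 level was 63.2 CPM and the relative log2 ratio was -0.21, so that the direction rested on that cell.

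Slc11a2 encodes DMT1, which carries ferrous iron across the endosomal and cell membranes (ENSMUSG00000023030.16, chr15:100387898-100424209). It overlaps the noncoding gene Gm5475, and the strand used in counting is not given in the sources used here, so reads of the overlap are uncertain. The 6 day 0 cells had 0, 0, 0, 0, 17.6 and 0.341 CPM, and cell 5 held 97.3% of the day's reads. Day 3 cells ran from 0 to 26.2 CPM (median 4.42), with reads in 5 of 7. Day 6 cells ran from 0 to 109.9 CPM (median 7.04), with reads in 5 of 6. The 5 day 9 cells had 0, 5.50, 11.3, 0 and 2.21 CPM. On each day 1 cell held most of the reads (97.3%, 51.9%, 83.5% and 64.9% at days 0, 3, 6 and 9), and the later cells overlapped the day 0 range.

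Summed by day, Slc11a2 stood at 2.46 CPM (2.03 to 2.96) at day 0, 7.43 CPM (6.75 to 8.15) at day 3, 31.5 CPM (30.2 to 32.9) at day 6 and 4.60 CPM (3.93 to 5.35) at day 9. Day 6 was the highest, and cell 1 held 83.5% of its reads. Without that cell the day 6 level was 6.84 CPM and the relative log2 ratio was 0.69, against 2.74 with it. The relative log2 ratio at day 3 was 1.19, and it ranged from 0.52, without day 3 cell 2, to 2.75, without day 0 cell 5. It was also below 2-fold without day 0 cell 3, cell 4 or cell 6 (0.93, 0.80 and 0.87). At day 9 the ratio was -0.01, and it was 1.56 without day 0 cell 5. The level of Slc11a2 without day 0 cell 5 was 0.0763 CPM at day 0, so that 1 cell decided the value that all 3 ratios were set against.

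**Figure D3:**
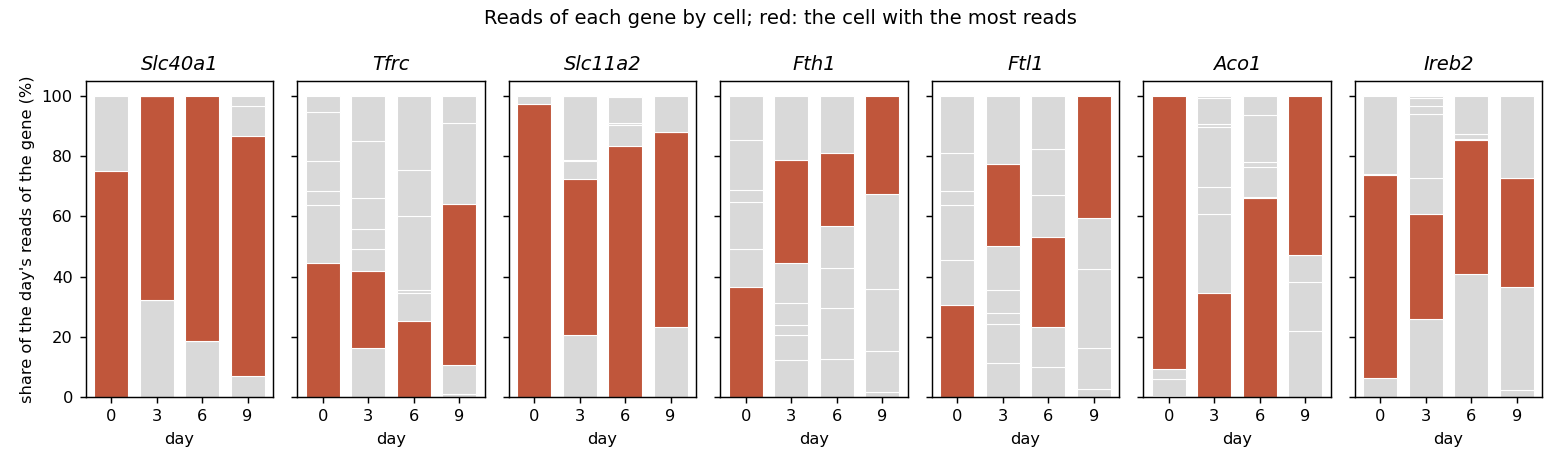
Share of each day's reads of a gene that came from each cell, in percent, stacked by cell; the red block is the cell with the most reads. At day 0 a single cell held 75.0% of the Slc40a1 reads, 97.3% of the Slc11a2 reads, 90.8% of the Aco1 reads and 67.6% of the Ireb2 reads, against 36.6% for Fth1 and 30.4% for Ftl1.

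Fth1 encodes the ferritin heavy chain, which oxidises iron for storage (ENSMUSG00000024661.7, chr19:9980600-9985111), and Ftl1 encodes the light chain, which promotes formation of the iron core (ENSMUSG00000050708.16, chr7:45457944-45459886). Both had reads in all 24 cells. Fth1 ran from 215.0 to 1321.6 CPM in day 0 cells (median 555.5), from 291.0 to 1813.5 CPM in day 3 cells (median 573.4) and from 830.8 to 2516.7 CPM in day 6 cells (median 1621.5). Cells 1 to 5 of day 9 had 207.2, 969.9, 1089.5, 2336.9 and 1826.6 Fth1 CPM. Above every day 0 cell were 1 of 7 cells at day 3, 5 of 6 at day 6 and 2 of 5 at day 9.

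Ftl1 ran from 219.8 to 1008.2 CPM in day 0 cells (median 606.9), from 431.0 to 2003.7 CPM in day 3 cells (median 1053.8) and from 900.4 to 4989.2 CPM in day 6 cells (median 2063.7). In order of cell number the day 9 cells had 266.3, 752.8, 1067.5, 987.4 and 1771.7 Ftl1 CPM. For this gene 4 of 7, 5 of 6 and 2 of 5 cells of days 3, 6 and 9 were above every day 0 cell. Day 6 was thus the day on which both ferritin genes had the highest median, and day 9 cell 1 was the lowest cell of its day for both.

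Summed by day, Fth1 stood at 692.2 CPM at day 0, 863.8 CPM at day 3, 1601.6 CPM at day 6 and 1386.3 CPM at day 9. Ftl1 stood at 634.4, 1198.3, 2187.5 and 1080.0 CPM on the same days. The counting intervals of these sums were narrow, as in Ftl1 at day 6 (2176.4 to 2198.6 CPM), because the sums held at least 28878 reads, and the spread between cells was far wider. Relative log2 ratios at days 3, 6 and 9 were 0.23, 0.72 and 0.29 for Fth1 and 0.82, 1.29 and 0.06 for Ftl1. Only Ftl1 at day 6 passed 2-fold, and it did not without day 0 cell 4 (0.93) or without day 6 cell 3 (0.97). Without day 0 cell 1, Fth1 at day 6 (1.11) and Ftl1 at day 3 (1.11) passed it too, and Ftl1 at day 3 did so without day 3 cell 1 (1.01). Over 13 other settings the day 6 ratio stayed above 0 for both, from 0.47 to 1.26 for Fth1 and from 1.04 to 1.78 for Ftl1. At day 9 the sign turned under some of these settings, which gave -0.09 to 1.00 for Fth1 and -0.32 to 0.77 for Ftl1.

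The ferritin genes varied together. Over the 24 cells Pearson's r of log2(CPM + 1) between Fth1 and Ftl1 was 0.86 and Spearman's rho was 0.84, and r was 0.87 after the mean of each day was subtracted. The other 20 pairs of the 7 genes had r between -0.43 and 0.41. These are descriptions over cells that share their day, preparation and scaling to a total. Part of that total is CT010467.1, and the share of CT010467.1 went with Fth1 at r = -0.73 and with Ftl1 at r = -0.55. With CT010467.1 taken out of the totals, r between Fth1 and Ftl1 was 0.78. On these totals the median of Fth1 over cells was 1198.7, 1514.9, 2589.5 and 1568.4 CPM at days 0, 3, 6 and 9, and that of Ftl1 was 1180.3, 2259.7, 3124.3 and 1217.2 CPM, with day 6 again the highest for both.

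The balance of the chains within a cell does not depend on the total. All 7 day 3 cells had more Ftl1 than Fth1 reads, with a ratio of Ftl1 to Fth1 reads from 1.11 to 2.15, against 4 of 6 day 0 cells and 0.701 to 1.20. At day 6 the ratio was above 1 in 5 of 6 cells and ran from 0.862 to 3.03. The 5 day 9 cells had ratios of 1.28, 0.776, 0.980, 0.422 and 0.970, so that only cell 1 had more Ftl1 reads. Over summed cells the ratio was 0.917, 1.39, 1.37 and 0.779 in order of day. The lowest ratio belonged to day 9 cell 4, which had the highest visceral endoderm markers and 18.6% mitochondrially encoded reads, and whether these are linked was not tested. Since the genes differ in length, a ratio above or below 1 does not say which mRNA was more abundant, but it can be compared from cell to cell.

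**Figure D4:**
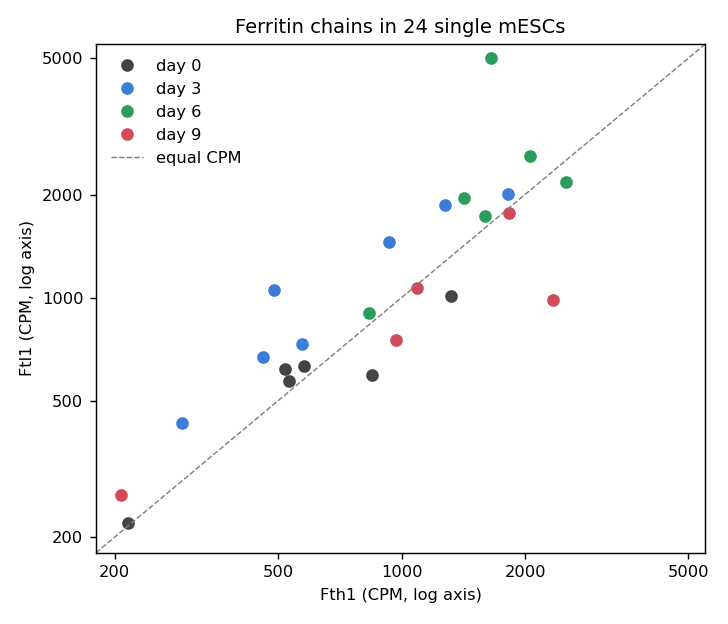
Ftl1 against Fth1 in 24 single mESCs, both in CPM on log axes, coloured by day; the dashed line marks equal CPM. All day 3 cells lie above the line and 4 of 5 day 9 cells lie below it, and over all cells r was 0.86.

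Ferritin has many near-identical copies in the mouse genome, which makes these counts uncertain. Among reads given to genes named as Ftl copies, Ftl1 held 97.0%, Ftl1-ps1 1.70% and Ftl1-ps2 1.26%, and among those named as Fth copies Fth1 held 99.3%. A further light chain copy, Ftl2-ps (chr4:125504080-125505018), had 0 reads and lies inside Grik3 (chr4:125490259-125714173), which encodes a neuronal glutamate receptor subunit. Grik3 had 139539, 402628, 649996 and 252459 reads at days 0, 3, 6 and 9, and 2.92 to 7.52 reads for each Ftl1 read in a cell. Its level went with that of Ftl1 at r = 0.93 over 24 cells, the highest of the 5369 genes compared. Which gene the Grik3 reads came from was not tested.

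With the Grik3 reads added, an alternative chosen after the values were seen, the sum stood at 3699.6, 7915.9, 11703.0 and 7996.8 CPM at days 0, 3, 6 and 9. Its relative log2 ratios at days 3, 6 and 9 were 1.00, 1.17 and 0.41. In summed CPM the order of the days changed only in that day 9 stood slightly above day 3. The relative log2 ratio was still higher at day 3 than at day 9, as was the median over cells (7629.6 against 6010.8 CPM). The number of the 7 genes at least 2-fold higher at day 3 became 2. The balance with Fth1 is not settled by these counts, since the sum gave 3.05 to 15.6 reads for each Fth1 read in a cell.

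Aco1 encodes iron regulatory protein 1, which is an aconitase when it holds an iron-sulphur cluster and binds iron-responsive elements when it does not (ENSMUSG00000028405.9, chr4:40143265-40199009). The 6 day 0 cells had 0, 0.132, 0.118, 5.52, 3.06 and 59.6 CPM. Day 3 cells ran from 0.230 to 11.2 CPM (median 5.24) and day 6 cells from 0.430 to 47.2 CPM (median 10.2). The 5 day 9 cells had 3.07, 1.27, 0.518, 0 and 3.21 CPM. Day 9 held the narrowest range, and all of its cells lay within the range of the day 0 cells.

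Summed by day, Aco1 stood at 12.7 CPM (11.7 to 13.8) at day 0, 6.01 CPM (5.40 to 6.66) at day 3, 17.1 CPM (16.1 to 18.1) at day 6 and 1.51 CPM (1.14 to 1.96) at day 9. Relative log2 ratios were -1.06, -0.09 and -3.16 at days 3, 6 and 9. Cell 6 held 90.8% of the day 0 reads, and the day 0 level without it was 1.44 CPM. Without that cell the ratios of days 3, 6 and 9 were 1.30, 2.30 and -0.77, so that the direction at day 3 turned and the day 9 ratio no longer reached 2-fold. The day 3 ratio was also short of 2-fold without day 3 cell 5, 6 or 7 (-0.88, -0.85 and -0.88). Day 0 cell 6 also had the highest summed feeder fibroblast markers of the 24 cells, at 226.3 CPM, against 0 to 84.2 CPM in the other day 0 cells. Of these 12 markers 7 had at least 1 CPM at day 0, with Thy1 at 25.7 CPM and the collagen gene Col1a2 at 16.2 CPM. At days 3, 6 and 9, which had no feeders, Thy1 still stood at 2.10, 20.1 and 11.6 CPM. Col1a2 stood at 0.05, 0.26 and 0.22 CPM on those days. The part of feeder cells in the Aco1 level was not tested. At day 6, cell 1 held 66.1% of the reads, and the level without it was 7.62 CPM, with a ratio of -1.15.

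Ireb2 encodes iron regulatory protein 2, which lacks an aconitase form and is degraded when iron is plentiful (ENSMUSG00000032293.8, chr9:54862658-54912534). The 6 day 0 cells had 0.115, 0, 9.12, 145.5, 0.161 and 36.9 CPM, and cell 4 held 67.6% of the day's reads. Day 3 cells ran from 0.576 to 37.7 CPM (median 18.5) and day 6 cells from 0.284 to 39.1 CPM (median 7.01). Those of day 9 had 6.39, 52.4, 40.7, 0.442 and 32.6 CPM. Every later cell lay within the day 0 range, which day 0 cell 4 made wide.

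Summed by day, Ireb2 stood at 27.4 CPM (25.9 to 29.0) at day 0, 15.9 CPM (14.9 to 16.9) at day 3, 15.0 CPM (14.1 to 16.0) at day 6 and 29.8 CPM (28.1 to 31.6) at day 9. Relative log2 ratios were -0.85, -1.32 and -0.59 at days 3, 6 and 9. Without day 0 cell 4, whose loss left 10.2 CPM at day 0, they were 0.26, -0.20 and 0.54. The 2-fold difference at day 6 therefore rested on that cell, and at days 3 and 9 the direction did. The day 3 ratio passed 2-fold without any 1 of day 0 cells 1, 2, 3 and 5 and of day 3 cell 2 (-1.18 to -1.07). Macrophage markers summed to 237.4 CPM in day 0 cell 4, the highest of the 24 cells. Only 2 of the 12 macrophage markers had at least 1 CPM over day 0. These were the transcription factor gene Spic, at 26.4 CPM, and Cd68, at 7.64 CPM. C1qa, C1qc and Tyrobp were at 0 at day 0, and the part of other cells in the Ireb2 level was not tested.

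Genes most like each of the 7 were taken as the 3 of highest Pearson's r of log2(CPM + 1) over the 24 cells, among 5369 or 5370 genes. For Fth1 they were Psma3 (r = 0.89), a proteasome subunit, and Btf3 (r = 0.89) and Naca (r = 0.88), which encode the nascent polypeptide-associated complex. For Ftl1 they were Grik3 (r = 0.93), Gsta4 (r = 0.87), which encodes a glutathione transferase, and Fth1 (r = 0.86). Tfrc was most like Pak1ip1 (r = 0.84), which acts in ribosome assembly, Pgk1 (r = 0.78), a glycolytic enzyme, and Hspa4 (r = 0.77), a chaperone of the HSP110 group. For these genes r was at least 0.81 after the mean of each day was subtracted, so that the likeness lay within days as well as between them.

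The genes with reads in fewer cells had lower values or other partners. Slc11a2 was most like Maged2 (r = 0.68), Lrp11 (r = 0.67) and Shisal2a (r = 0.67). Aco1 was most like Fgf4 (r = 0.75), a growth factor of pluripotent cells, Nfe2l1 (r = 0.70), a transcription factor of the NRF family, and Stag3 (r = 0.68), a meiotic cohesin subunit. Ireb2 was most like Foxn2 (r = 0.82), Nuf2 (r = 0.80), a kinetochore protein, and Cdyl2 (r = 0.79). Slc40a1 had reads in only 11 of 24 cells, below the 12 the rule asked for, and its nearest genes, given after the values were seen, were Kcnq5 (r = 0.85), Hipk2 (r = 0.82) and Sfn (r = 0.81). For these 3 r was 0.59, 0.61 and 0.47 once the mean of each day was subtracted.

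The wider pathway was described by 12 lists of 126 genes, of which 125 were matched and 118 are not among the 7. Over all lists 103, 102 and 99 genes were measured at days 3, 6 and 9. At least 2-fold higher were 23 (22.3%), 28 (27.5%) and 24 (24.2%) of them, and at least 2-fold lower were 17 (16.5%), 17 (16.7%) and 24 (24.2%). Their median relative log2 ratio was 0.15, 0.17 and 0.15 at days 3, 6 and 9. These shares lie near those of all genes measured, 20.7%, 25.4% and 25.2% higher and 23.5%, 23.1% and 23.8% lower.

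In iron export, the oxidases that ready exported iron for transferrin and the hormone that removes ferroportin were barely seen. Heph, which encodes the oxidase hephaestin, stood at 0.877 CPM at day 9, against 0.791 CPM at day 0. Cp, which encodes the oxidase ceruloplasmin, had 1 read at day 9 and 4 reads at day 0. Hamp and Hamp2, which encode hepcidin, had 0 reads on all 4 days. Of 12 genes measured at days 3 and 6 and 11 at day 9 in the list of hepcidin control, 0, 4 and 4 were at least 2-fold higher and 3, 4 and 3 lower. Id1, a target gene of bone morphogenetic protein signalling, stood at 193.6 CPM at day 9 (11.8 to 387.8 in 5 cells), against 5.75 CPM at day 0 (0 to 24.0 in 6 cells). Its relative log2 ratio at day 9 was 4.14 (3.55 to 5.27 without any 1 cell).

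In iron uptake, 7, 8 and 7 of 10 other genes were measured at days 3, 6 and 9, with 0, 1 and 1 at least 2-fold higher and 1, 3 and 3 lower. The median relative log2 ratio was -0.57, -0.85 and -0.95. Steap1, of a family of ferric reductases, stood at 21.7 CPM at day 9, against 42.1 CPM at day 0, where its cells ran from 0 to 181.9 CPM. In storage and ferritinophagy, Pcbp1, which encodes a chaperone that brings iron to ferritin, stood at 375.1 CPM at day 9 and 290.1 CPM at day 0. Of the 5 genes measured in that list at each day, 1, 1 and 0 were at least 2-fold higher and 0, 1 and 0 lower.

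Among the genes that control the iron regulatory proteins, 4 were measured and 0, 2 and 2 were at least 2-fold higher at days 3, 6 and 9, with none lower. Cul1, the cullin scaffold of the ubiquitin ligase that marks IRP2 for degradation, stood at 71.9 CPM at day 9 (20.4 to 174.2 in 5 cells), against 7.71 CPM at day 0 (1.07 to 27.4 in 6 cells). Its relative log2 ratio was 2.36 (1.38 to 2.72 without any 1 cell). Fbxl5, the iron-sensing subunit of that ligase, stood at 47.8 CPM at day 9, against 11.7 CPM at day 0, with a relative log2 ratio of 1.24. Unlike the ratio of Cul1, that of Fbxl5 fell short of 2-fold for at least 1 choice of cell left out. Of the other mRNAs with an iron-responsive element, Cdc42bpa, which had the most reads, stood at 8.79 CPM at day 9 and 4.66 CPM at day 0, with a relative log2 ratio of 0.09.

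Of the 18 measured genes of mitochondrial iron import and iron-sulphur cluster assembly, 5, 3 and 3 were at least 2-fold higher and 4, 3 and 6 lower at days 3, 6 and 9. Hscb, the cochaperone that hands on new clusters, stood at 8.96 CPM at day 9, against 41.0 CPM at day 0, with a relative log2 ratio of -2.78 (-3.34 to -2.36 without any 1 cell). Bola3 and Isca2, which act late in cluster assembly, had ratios of -2.55 (-3.17 to -2.09) and -2.08 (-2.66 to -1.15). Iscu, the scaffold on which clusters form, stood at 67.2 CPM at day 9 and 11.8 CPM at day 0, so that members of this list lay to both sides and its median was -0.14. Of the 9 measured genes of cytosolic assembly, 1, 0 and 1 were higher and 2, 0 and 3 lower, and Glrx3, which has the most reads among them, stood at 327.1 CPM at day 9 and 154.2 CPM at day 0.

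Of 10 measured genes of haem synthesis at days 3 and 6, and 9 at day 9, 3, 2 and 2 were at least 2-fold higher and 3, 2 and 3 lower. Urod, an enzyme of haem synthesis, stood at 95.7 CPM at day 9 and 45.5 CPM at day 0. Haem breakdown and transport had 5, 2 and 4 of 10 genes higher and 0, 1 and 1 lower. Blvra, which encodes biliverdin reductase A, stood at 21.2 CPM at day 9 (1.33 to 60.7 in 5 cells), against 0.242 CPM at day 0 (0 to 1.02 in 6 cells). Every day 9 cell thus lay above every day 0 cell, as in 2.11% of all genes measured. Blvra was named for its day 9 ratio, so this is a description only. Its relative log2 ratio was 3.46 (2.02 to 3.77 without any 1 cell). Hmox1, the haem oxygenase that frees iron from haem, stood at 91.7, 42.5 and 79.7 CPM at days 3, 6 and 9, against 19.8 CPM at day 0. Its relative log2 ratio at day 9 was 1.25, and it fell short of 2-fold for at least 1 choice of cell left out.

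NRF2 is a transcription factor of the oxidative stress response that also drives ferritin genes. Of its targets on the list, other than ferritin, 5 of 13, 8 of 12 and 6 of 12 measured genes were at least 2-fold higher at days 3, 6 and 9, and 0, 0 and 1 were lower. Among all genes measured, 20.7%, 25.4% and 25.2% were higher and 23.5%, 23.1% and 23.8% lower. The list was chosen with earlier results known, and the part of NRF2 in the ferritin levels was not tested. The median relative log2 ratio of the NRF2 targets was 0.82, 1.43 and 1.02, against 0 for all genes measured by construction. Me1, which encodes malic enzyme, stood at 38.5 CPM at day 9 (5.28 to 91.9 in 5 cells), against 1.19 CPM at day 0 (0 to 4.55 in 6 cells), with a relative log2 ratio of 3.47 (2.97 to 4.03 without any 1 cell). Gclm, a subunit of the enzyme that starts glutathione synthesis, had ratios of 1.24, 2.25 and 1.24 at days 3, 6 and 9. Txnrd1, which encodes thioredoxin reductase, was the lower gene at day 9, at -1.44, which fell short of 2-fold for at least 1 choice of cell left out. G6pdx had 0 reads in these cells.

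In ferroptosis control, 11 other genes were measured, 3, 5 and 3 of them at least 2-fold higher and 2, 1 and 3 lower at days 3, 6 and 9. Cisd2, which encodes an iron-sulphur protein, stood at 21.2 CPM at day 9, against 0.0659 CPM from 3 reads at day 0, a plain ratio of 322.2 (109.8 to 1565.8, counting error only). Slc3a2, a chain of the cystine transporter, stood at 88.3 CPM at day 9, against 177.6 CPM at day 0, with a relative log2 ratio of -1.71 (-2.05 to -1.21 without any 1 cell). Slc7a11, the other chain of that transporter, went the other way. It stood at 11.5 CPM at day 9, against 0.3075 CPM from 14 reads at day 0, with a ratio of 2.55. Acsl4, which makes lipids prone to peroxidation, stood at 12.4 CPM at day 9, against 25.1 CPM at day 0, with a ratio of -1.67 (-2.42 to -1.38). Gpx4, the enzyme that removes lipid peroxides, stood at 1385.9 CPM at day 9 and 1095.6 CPM at day 0, a ratio of -0.37.

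**Figure D5:**
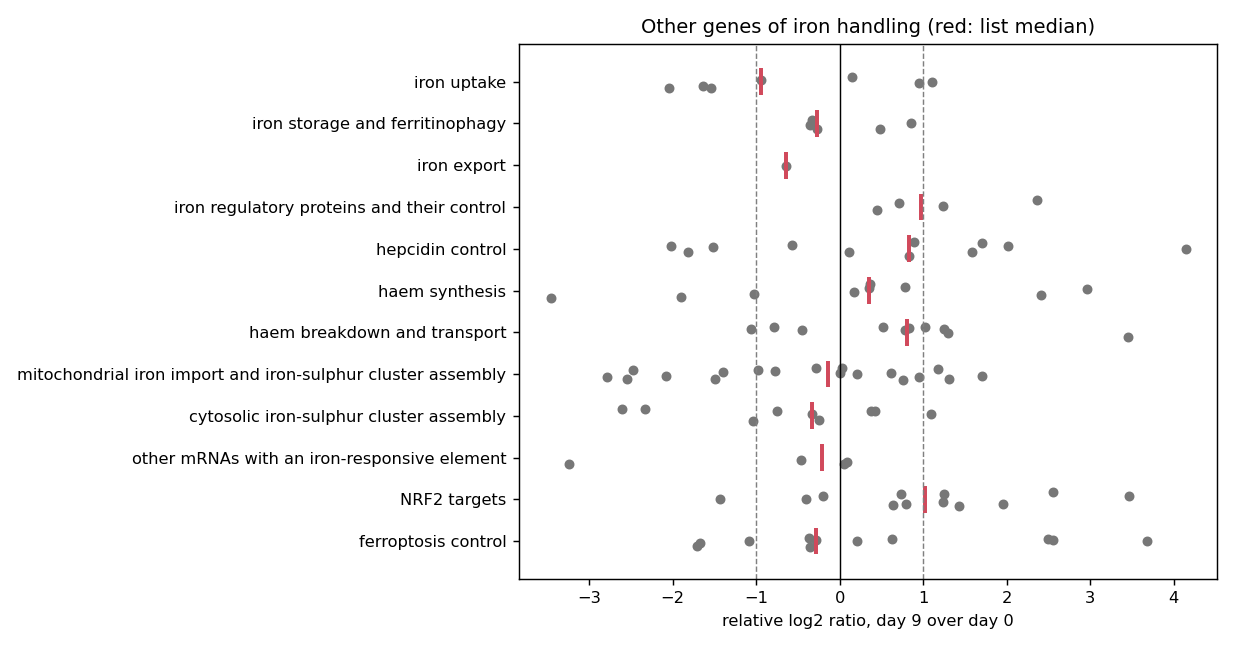
Relative log2 ratio at day 9 over day 0 of the measured genes of 12 iron-related lists, without the 7 genes described above. Each grey point is 1 gene, red bars are list medians and dashed lines mark 2-fold. Most lists spread to both sides of 0. The NRF2 targets, with a median of 1.02, have 6 of 12 genes past the upper dashed line and 1 past the lower. Among all genes measured the shares are 25.2% and 23.8%.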

How the data were processed

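RNA was measured in 24 mESC libraries, 1 cell each. The authors deposited raw read counts per gene (whole numbers, 1 file per library, not normalized), and all 55401 mouse gene rows were read from each. The 5 closing lines for unassigned reads stayed out of totals and held, among others, reads that mapped to several places (3.865% to 18.84% of those in a file) and ambiguous reads (0.8512% to 5.056%). Trim Galore 0.6.7, Bismark, Bowtie2 2.2.9 and builds hg38 and mm10 are named, with no role given, in the submitters' processing notes; no RNA aligner, counter, annotation or strand setting is given in those notes or in the labels. Gene names came from the supplied name table, which covered 55141 identifiers. No 2 libraries of a day agreed within sampling noise (61 pairs, lowest chi-square per degree of freedom 35.49).

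Counts were scaled to CPM with CT010467.1 and mitochondrially encoded genes kept in the totals. Days were compared on summed cells as log2(CPM + 1), less the median of the genes measured, which had 20 or more reads from 2 or more libraries of the days compared; a fold on this scale understates the change of low genes. At least 2-fold counted as called, and no test between days was run because each day is 1 sample. Ratio intervals are exact conditional binomial intervals at 95%. edgeR 4.0.16 and DESeq2 1.42.0 (R 4.3.3) gave the alternative scaling factors only; other steps used Python 3.11.15, pandas 2.3.3 and scipy 1.17.1. The scripts were tested on simulated data.

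The 7 genes, the 12 pathway lists and the 6 marker lists were chosen with earlier results of these data known. Named besides the 7 were, per list, up to 3 genes with the largest day 9 ratio among those whose higher day had 20 CPM or more and reads in most of its cells, and whose ratio stayed past 2-fold without any 1 cell, or else the gene with the most reads. Per marker list they were the 2 genes of highest CPM. Fbxl5, Cp, Hamp, Hamp2, Iscu, Hmox1, Gclm, Txnrd1, G6pdx, Slc7a11 and Gpx4 were added after their values were seen. Genes compared for likeness had reads in at least 12 cells and at least 10 CPM. The human libraries and the DNA libraries of the series were not analysed here.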

Additional observations from a re-analysis of the deposited data

Results flagged for a closer look

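Within each day the highest and the lowest cell of each of the 7 genes were described by the gap to the nearest other cell as a share of the day's range, and cells past Dixon's critical value are named. Chance gives about 1 such group in 20 for normally distributed values. The CPM of several of these genes are mostly 0, so the number of groups named is not read against that rate. Of 28 groups (7 genes on 4 days), 9 had such a cell, each time the highest.

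Slc40a1 had such a cell on every day. Day 0 cell 5 had 0.483 CPM, from 3 reads, and the next cell had 0.114 CPM. Day 3 cell 5 had 5.54 CPM (next 1.71 CPM) and day 6 cell 6 had 4.34 CPM (next 0.860 CPM). Day 9 cell 3 had 305.8 CPM, and the next cell had 53.5 CPM.

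Slc11a2 had 17.6 CPM in day 0 cell 5 (next 0.341 CPM) and 109.9 CPM in day 6 cell 1 (next 18.1 CPM). Aco1 had 59.6 CPM in day 0 cell 6 (next 5.52 CPM) and 47.2 CPM in day 6 cell 1 (next 17.3 CPM). Ireb2 had 145.5 CPM in day 0 cell 4, and the next cell had 36.9 CPM.

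Day 6 cell 1 was named for both Slc11a2 and Aco1, and day 0 cell 5 for both Slc40a1 and Slc11a2. Tfrc, Fth1 and Ftl1 had no such cell on any day.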

How the results depend on the processing

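The number of the 7 genes at least 2-fold higher at day 3 (1) became 2 with CT010467.1 out of the totals, with a pseudocount of 0.1 CPM or with Grik3 reads added to Ftl1, 3 with the median over cells and 0 with a pseudocount of 10 CPM. Without any 1 cell it ran from 0 to 3. The number lower at day 3 (1) became 0 without the median subtraction, with the median over cells, with a pseudocount of 10 CPM and with a minimum of 1 or of 200 reads, and ran from 0 to 2 without any 1 cell.

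At day 6 the number higher (2) became 4 with the median over cells and 3 without the median subtraction, with a pseudocount of 0.1 or 10 CPM and with a minimum of 1 read. It ran from 1 to 3 without any 1 cell. The number lower (1) became 0 without the median subtraction, with the median over cells, with a pseudocount of 10 CPM and with a minimum of 1 read, and 2 with only the day 0 cells under 10% mitochondrially encoded reads. Without any 1 cell it ran from 0 to 2. At day 9 the number higher (1) became 3 without the median subtraction and with the median over cells, and ran from 1 to 2 without any 1 cell. The number lower (1) became 0 with the median over cells and 2 with only the day 0 cells under 10% mitochondrially encoded reads, and ran from 0 to 1 without any 1 cell. The causes were not tested.

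The Aco1 ratio at day 3 turned to 1.08 with the median over cells and ran from -1.41 to 1.30 without any 1 cell, the highest without day 0 cell 6. The Slc11a2 ratio at day 3 turned to -0.32 with only the day 0 cells under 10% mitochondrially encoded reads, and the Ireb2 ratio at day 6 turned to 0.23 with the median over cells. Under that setting the Ireb2 ratio also turned to 1.61 at day 3 and 1.93 at day 9, and that of Aco1 to 1.83 at day 6, all past 2-fold; smaller turns were those of Slc40a1 at days 3 and 6 (-0.18 and -0.28), Fth1 at day 3 (-0.14) and Tfrc at day 9 (-0.46), and Slc11a2 at day 9 turned to 1.04. Slc40a1 at day 9 kept its direction and at least 2-fold under all 24 alternatives. TMM factors, median-of-ratios factors, totals without mitochondrially encoded genes and the mean over cells changed none of the 6 counts. No paired analysis was possible because each day is 1 sample with no test, and the cell numbers that days share are only names.

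With 5 to 7 cells a day and no replicate culture, cells of a rare type, a single unusual cell and a difference between days cannot be told apart. Depth limits Slc40a1 at day 0, where 4 reads stand behind the level, and the ferritin counts depend on how copies of these genes were handled in mapping.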
